A study of Mus musculus with 8 samples.

Results

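The comparison set CD8 T cells against CD4 T cells from mixed lymphocyte cultures that received no antibody. It was made by taking, for each probe set, the 2 arrays of untreated CD8 cells minus the 2 arrays of untreated CD4 cells, which are 4 of the 8 arrays of the series, over all 45037 probe sets that are not array controls. In such a reaction, lymphocytes of one strain of mouse respond to the foreign tissue antigens of a second strain. The groups were untreated CD8 cells, untreated CD4 cells, blockade CD8 cells and blockade CD4 cells, with 2 arrays each. In every group the responders were splenocytes of C57BL/6 mice labelled with the dye CFSE at 5 µM, plated at 200000 per well with 800000 FVB/N splenocytes that had been irradiated with 30 Gy, and kept for 5 days. The blockade cultures also held anti-CD40L, anti-LFA-1 and CTLA4-Ig at 50 µg each. RNA came from 300000 sorted cells that carried CFSE and either CD4 or CD8. No gate on cell division or on the T cell receptor is named, and one protocol label calls the staining antibodies anti-human although the cells were murine. The labels give 4 mice per group. Whether the replicate arrays represent separate cultures or animals is not stated, so a p-value here reflects the array-to-array spread, possibly a technical one.

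CD8 T cells recognise antigen on MHC class I and develop into killer cells loaded with granzymes, while CD4 T cells recognise antigen on MHC class II and develop mainly into helper cells that secrete cytokines. Both respond to interleukin-2, a growth factor bound with high affinity once the receptor's alpha chain, encoded by Il2ra, has been induced. The receptor signals through STAT5, and the SOCS-family genes Cish and Socs2 are among the targets that feed back on it.

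The deposited values were log2 values, each relative to the median of its probe set over the 8 arrays. A positive value is a signal above that median, and no value tells how strongly a gene was expressed. Gene names came only from a list of 409 probe sets that the authors deposited, all of which lay at least 1 log2 unit apart between the 4 untreated and the 4 blockade arrays. This left 289 named genes, 208 of them with a higher mean in the untreated than in the blockade arrays, and 44951 features once each gene's listed probe sets had been averaged. Because the list was chosen on these arrays, the named genes are not a sample of the transcriptome. No member of the lists of CD8 lineage, CD4 lineage, T cell and NK genes was among the named genes, so the sorted subsets could not be checked against Cd8a, Cd4 or Cd3e by name.

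Between the 2 arrays of one group the median absolute difference of a probe set was 0.12 in untreated CD8 cells and 0.12 in untreated CD4 cells, against 0.13 to 0.14 between a CD8 and a CD4 array. Probe sets more than 1 log2 unit apart numbered 143 between the 2 CD8 arrays and 42 between the 2 CD4 arrays, against 524 to 630 between arrays of different subsets. The hybridization spike-ins, bacterial transcripts added in equal amount to each array, had medians of -0.08 and 0.01 on the CD8 arrays and -0.04 and -0.23 on the CD4 arrays. The spike-ins added before labelling lay at 0.25 and -0.05 on the CD8 arrays and at -0.13 and -0.48 on the CD4 arrays. CD4 replicate 2 was thus the lowest of the 4 untreated arrays in both kinds of spike-in. Among the blockade arrays CD8 replicate 1 stood apart, with spike-in medians of 0.92 and 0.84, against -0.37 to 0.18 on the other 3. It alone passed the cut of 0.5 set for the hybridization spike-ins. CD4 untreated replicate 2 did not pass it and was added to the arrays left out after the data were seen.

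In the untreated cultures 1130 of the 45037 probe sets, or 2.51%, differed between CD8 and CD4 cells at an adjusted p of at most 0.05 in limma. CD8 cells were higher at 485 of them (1.08%) and lower at 645 (1.43%). A difference of at least 1 log2 unit was reached by 469 (1.04%), of which 203 were higher and 266 lower in CD8 cells. Differences of at least 2 log2 units were seen at 62 higher and 59 lower probe sets. Only 41 of the 1130 were in the authors' deposited list, 6 of them higher and 35 lower, so 1089 have no name here. An equal-variance two-sample test on the same 4 arrays, which borrows no variance from other probe sets, called none (4317 at an unadjusted p below 0.05), and leaving out 1 untreated array in turn left between 560 and 742 limma calls, the fewest without CD4 replicate 2.

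The largest differences of all were among these unnamed probe sets. Probe set 1451673_at was at 3.68 and 3.65 in untreated CD8 cells and at -3.11 and -3.58 in untreated CD4 cells, a difference of 7.01 ± 0.16 (SE, adjusted p = 2.08e-07). Probe sets 1444078_at and 1425335_at followed with 6.68 ± 0.16 and 6.42 ± 0.23. In the other direction 1417928_at stood at -1.90 and -2.11 in CD8 cells and at 2.79 and 2.58 in CD4 cells, a difference of -4.69 ± 0.13. The next were 1456440_s_at with -4.50 ± 0.14 and 1423415_at with -4.48 ± 0.13. For these 6 the gap between the subsets was many times the gap between the arrays of a group.

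Of the 289 named genes, 32 were called (11.1%, against 2.5% of all 44951 features). In CD8 cells 26 were lower and 6 higher, against 1.42% and 1.08% of all features. The median difference of the named genes was -0.16, with 219 below and 70 above 0, against a median of 0.002 over all features. The list was chosen on these same arrays, so a gene high in a single untreated subset could enter it through that subset. The higher share called and the split are therefore favoured by that choice and are given as a description. For all 32 called genes both CD8 arrays lay on one side of both CD4 arrays. Among all features, 21.2% had both CD8 arrays above and 20.9% both below the CD4 arrays, so that separation alone is common. The 257 named genes that were not called ranged from -1.30 to 0.68, and 232 of them lay within 0.5 of 0. Without CD4 replicate 2 the called genes numbered 12, all lower in CD8 cells, and without CD8 replicates 1 and 2 in turn they numbered 17 and 16. The 14 lower genes that lost their call without CD4 replicate 2 were Lif, Mbnl3, Scin, Cxcl10, Dhx58, Srpk3, Snn, Xbp1, Gbp3, Ifit1, Ifih1, Ccr6, Sft2d2 and Wars, with differences of -1.10 to -0.49 and adjusted p-values of 0.052 to 0.28 in that fit.

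**Figure D1:**
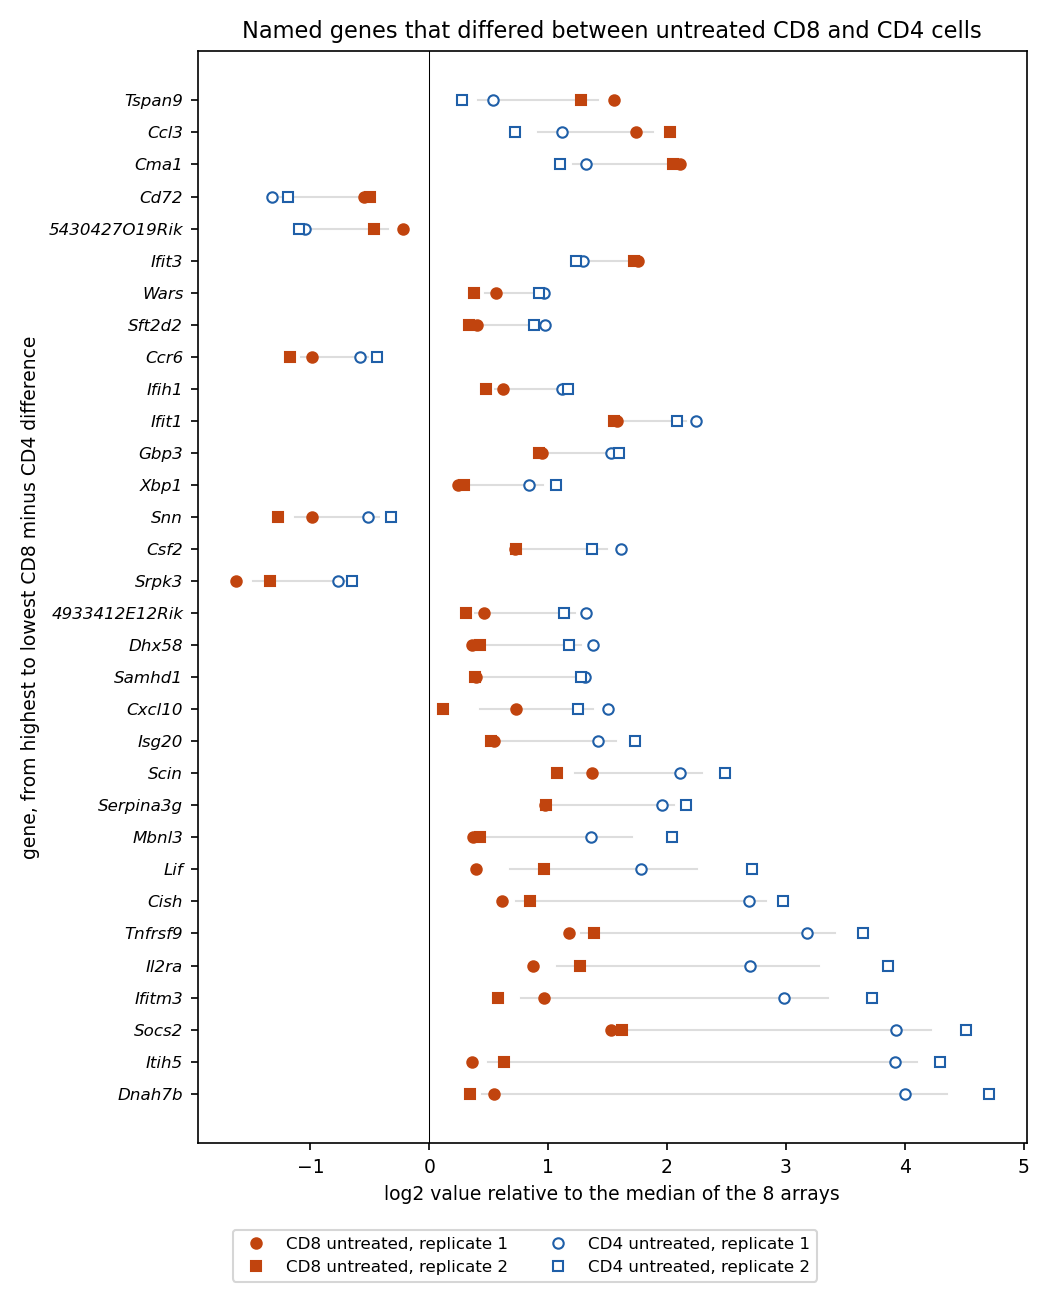
Value of each of the 32 called named genes on the 4 untreated arrays (horizontal axis, log2 relative to the median of the 8 arrays; filled orange, CD8 cells; open blue, CD4 cells; circles, replicate 1; squares, replicate 2; grey line, between the group means). The 6 genes at the top were higher in CD8 cells and the 26 below them lower, and in each row the pairs of arrays do not overlap.

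Genes of the interleukin-2 receptor pathway were lower in CD8 cells. Il2ra, the inducible alpha chain, was at 0.87 and 1.27 in untreated CD8 cells and at 2.69 and 3.86 in untreated CD4 cells. Both CD8 arrays lay below both CD4 arrays, and the difference was -2.21 ± 0.32 log2 units (SE, n = 2 each), or 4.61-fold lower, with an adjusted p of 0.0072. The call was lost without CD8 replicate 1 (adjusted p = 0.055) and in a fit of the 4 untreated arrays alone (adjusted p = 0.052), while without CD4 replicate 2 the difference was -1.62 and was called (adjusted p = 0.0096). Socs2, a feedback inhibitor of cytokine receptors, was at 1.53 and 1.62 in CD8 cells and at 3.93 and 4.51 in CD4 cells, a difference of -2.64 ± 0.17 (adjusted p = 6.8e-05). Cish, another STAT5-induced inhibitor, was at 0.61 and 0.84 in CD8 cells and at 2.69 and 2.97 in CD4 cells, a difference of -2.10 ± 0.16 (adjusted p = 0.00016). All 3 were above the median of the 8 arrays in both subsets, and the CD4 arrays were the higher ones. These 3 were the called members of the list of cytokine receptors and signalling, in which 7 of 28 genes were named, 4 were not called and the median was -0.26.

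The other members of that list moved little. Il7r, the interleukin-7 receptor chain of resting T cells, was at -0.46 and -0.46 in CD8 cells and at -0.78 and -0.82 in CD4 cells, a difference of 0.34 ± 0.09 that was not called (adjusted p = 0.13). Bcl2, an inhibitor of apoptosis, had a mean difference of -0.26 ± 0.10 over its 5 listed probe sets (adjusted p = 0.37). Its probe sets disagreed: 1437122_at and 1457687_at were lower in CD8 cells by -0.58 and -0.63, both called on their own (adjusted p = 0.040 and 0.042), while 1422938_at, 1440770_at and 1443837_x_at lay at -0.19, 0.035 and 0.050.

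Several listed probe sets were available for 6 of the 32 called genes, and they show how far a call depends on the probe set. Il2ra was -1.998 ± 0.44 by 1420691_at, which was not called on its own (adjusted p = 0.058), and -2.41 ± 0.27 by 1420692_at (adjusted p = 0.0018). The first of these had the wider gap between the CD4 arrays, 1.88 and 3.57. Samhd1, which degrades deoxynucleotides, was lower in CD8 cells by all 4 of its probe sets, between -0.83 and -0.997. Of the 62 named genes with more than 1 listed probe set, none had probe sets over 1 log2 unit apart in this difference, and 12 had probe sets of opposite sign, among them Bcl2, Bcl11a, Ciita, Ebf1 and Gbp6. None of those 12 was a called gene.

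**Figure D2:**
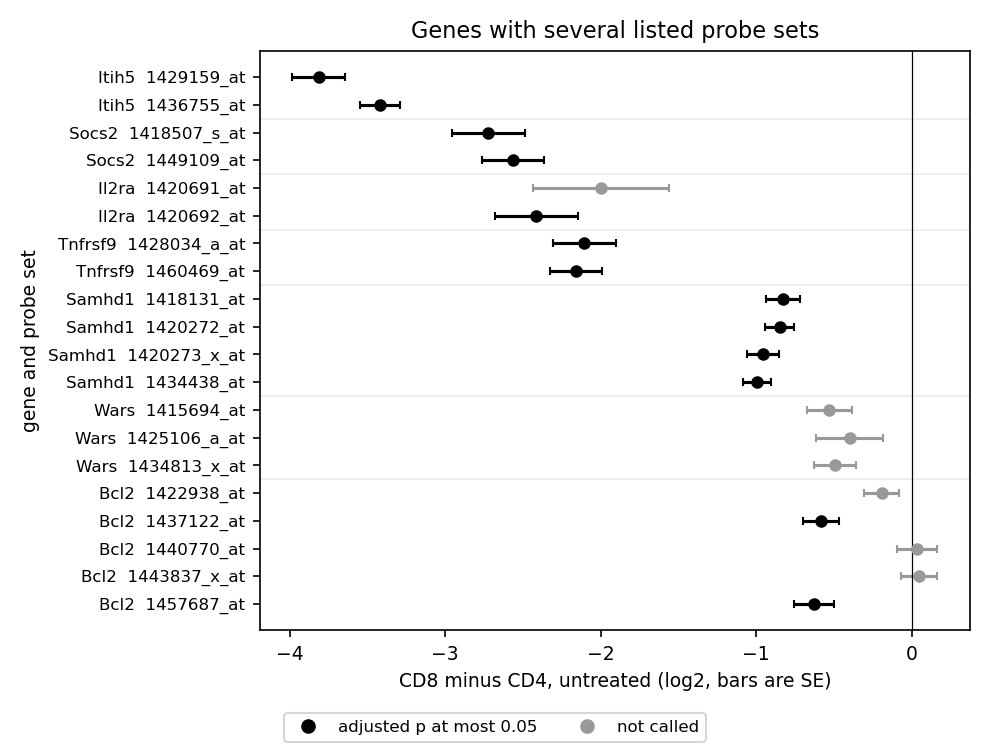
CD8 minus CD4 difference in untreated cells for each listed probe set (horizontal axis, log2; point, difference; bar, SE; black, adjusted p at most 0.05) of the 6 called genes with several probe sets and of Bcl2. All probe sets of the called genes lie left of 0, and those of Bcl2 lie between -0.63 and 0.05.

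The costimulatory receptor Tnfrsf9, also called CD137, was at 1.17 and 1.38 in untreated CD8 cells and at 3.17 and 3.65 in untreated CD4 cells. The arrays of the subsets were well apart, with a difference of -2.13 ± 0.16 log2 units (4.38-fold lower in CD8 cells, adjusted p = 0.00021). It was the 1 called gene among the 4 named of 14 activation and costimulatory receptors. Cd69, an early activation marker, was at 0.37 and 0.46 in CD8 cells and at 0.51 and 0.73 in CD4 cells, a difference of -0.20 ± 0.16 (adjusted p = 0.74). Treml2 had -0.33 ± 0.11 (adjusted p = 0.23). The list's 4 members were all below 0, with a median of -0.29.

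The largest differences among named genes belonged to Dnah7b and Itih5, which are not known as T cell effector genes. Dnah7b, a heavy chain of the dynein motors of cilia, was at 0.55 and 0.34 in untreated CD8 cells and at 4.00 and 4.71 in untreated CD4 cells. Itih5, a heavy chain of the inter-alpha-trypsin inhibitor family that binds hyaluronan, was at 0.36 and 0.63 in CD8 cells and at 3.92 and 4.30 in CD4 cells. In both genes the CD8 arrays lay close to the median of the 8 arrays and the CD4 arrays far above it. All blockade arrays were below all untreated arrays here, so the lower untreated pair borders that median by construction. Its closeness to the median does not tell how strongly CD8 cells expressed these genes. Dnah7b differed by -3.91 ± 0.21 (15.03-fold lower in CD8 cells, adjusted p = 2.3e-05) and Itih5 by -3.62 ± 0.15 (12.3-fold lower, adjusted p = 5.7e-06).

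Among the genes of secreted factors, Lif, a cytokine of the interleukin-6 family, was at 0.40 and 0.97 in CD8 cells and at 1.78 and 2.71 in CD4 cells. Its arrays did not overlap, but the CD4 arrays had an SD of 0.66, and the difference of -1.57 ± 0.28 (adjusted p = 0.021) lost its call without CD4 replicate 2 and without CD8 replicate 1, where its adjusted p reached 0.13. Csf2, which encodes GM-CSF, was at 0.72 and 0.73 in CD8 cells and at 1.62 and 1.37 in CD4 cells, a difference of -0.77 ± 0.13 (adjusted p = 0.015). The call of Csf2 was lost without CD8 replicate 1, CD8 replicate 2 or CD4 replicate 1. Ccl3, a chemokine that activated CD8 T cells release, ran the other way, with 1.74 and 2.02 in CD8 cells and 1.12 and 0.72 in CD4 cells, a difference of 0.96 ± 0.16 (adjusted p = 0.017). Its call was lost without CD8 replicate 2 or CD4 replicate 2. In the list of effector cytokines and chemokines 6 of 27 genes were named, of which Ccl3 was higher, Csf2 and Cxcl10 were lower and 3 were not called. The list median was -0.36, and it was 0.14 without CD8 replicate 2. After quantile normalization it was -0.02, and Ccl3 alone was called. Ccl9 and Ccl6, chemokines of myeloid cells, stood at 1.88 and 0.25 and at 2.61 and 1.10 on the CD8 arrays, so those values rest on which CD8 array is read. Ccl9 had -0.38 with all arrays, -1.19 without CD8 replicate 1, which was called (adjusted p = 0.014), and 0.43 without CD8 replicate 2, which was not.

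The cytotoxic genes did not move as one. Gzmb, the granzyme that triggers apoptosis in target cells, was at 2.72 and 3.37 in untreated CD8 cells and at 2.15 and 2.61 in untreated CD4 cells. Both CD8 arrays were above both CD4 arrays, yet the SD was 0.46 in CD8 cells and 0.32 in CD4 cells, and the difference of 0.67 ± 0.34 was not called (adjusted p = 0.53). Serpina3g, an inhibitor of lysosomal cathepsins in mouse T cells, was lower in CD8 cells, at 0.98 and 0.98 against 1.96 and 2.16 in CD4 cells, a difference of -1.08 ± 0.13 (adjusted p = 0.0031). The third named gene of this list of 20, Serpinb6b, had -0.44 ± 0.23 and was not called.

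Genes of the interferon response were split. Of 45 type I interferon genes 24 were named: 5 were lower in CD8 cells, 1 was higher and 18 were not called, with a median of -0.27. After quantile normalization 3 were called higher, namely Ifit3, Oas3 and Rsad2, and 2 lower, namely Ifitm3 and Isg20. The median was then -0.08, with 11 of 24 genes above 0 and 13 below. When any 1 of the 4 untreated arrays was left out, 2 were called lower and none higher. Ifitm3, a membrane protein that blocks virus entry, was at 0.96 and 0.58 in CD8 cells and at 2.99 and 3.72 in CD4 cells, a difference of -2.58 ± 0.27 (adjusted p = 0.0012). Isg20, an RNA exonuclease, was at 0.54 and 0.52 in CD8 cells and at 1.42 and 1.73 in CD4 cells, a difference of -1.04 ± 0.13 (adjusted p = 0.0031). Dhx58, a regulator of cytoplasmic RNA sensing, was at 0.36 and 0.43 in CD8 cells and at 1.38 and 1.18 in CD4 cells, a difference of -0.88 ± 0.17 (adjusted p = 0.028), a call that was lost when any 1 of the 4 untreated arrays was left out. Each of these genes had both CD8 arrays below both CD4 arrays. The RNA sensor gene Ifih1 had -0.59 ± 0.10 (adjusted p = 0.016) and lost its call in the same way, and Ifit1 was the fifth of the lower genes.

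Ifit1 and Ifit3, which belong to one family of interferon-induced RNA-binding proteins, moved in opposite directions. Ifit1 was at 1.58 and 1.55 in CD8 cells and at 2.24 and 2.08 in CD4 cells, a difference of -0.60 ± 0.12 (adjusted p = 0.039). Ifit3 was at 1.76 and 1.72 in CD8 cells and at 1.29 and 1.24 in CD4 cells, a difference of 0.48 ± 0.10 (adjusted p = 0.0493). The 4 arrays of each gene were apart by more than the pairs of a subset, but both calls were near the threshold and were lost when any 1 untreated array was left out. Ifit3 has a closely related neighbour gene, and its probe set may read both.

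Of 31 genes of the interferon-gamma response and its GTPases 20 were named, 3 of them lower in CD8 cells, none higher and 17 not called, with a median of -0.14. Cxcl10, a chemokine induced by interferons, was at 0.73 and 0.12 in CD8 cells and at 1.504 and 1.248 in CD4 cells, a difference of -0.95 ± 0.19 (adjusted p = 0.041). Gbp3, a guanylate-binding protein, was at 0.95 and 0.92 in CD8 cells and at 1.53 and 1.60 in CD4 cells, a difference of -0.63 ± 0.10 (adjusted p = 0.014). Wars, the tryptophanyl-tRNA synthetase, was lower by -0.47 (adjusted p = 0.047), though none of its 3 probe sets was called alone. After quantile normalization of the values the median of this list was 0.08, with 12 of 20 genes above 0, and none of its genes was called. Nor was any of them called without CD8 replicate 2, CD4 replicate 1 or CD4 replicate 2 in turn, and without CD8 replicate 1 Cxcl10 alone was called.

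Cxcl10, Gbp3, Ifit1 and Ifit3 were the called genes whose 250 bases before the annotated start hold, on either strand, the letters GAAA followed after any 2 bases by GAAA again, a spelling of the element bound by interferon-activated factors. Their sequences, from RefSeq's mouse build GRCm38.p6, are shown because genes that were higher and lower in CD8 cells carry the same letters. They are written in the direction of transcription with the matches in capitals (TTTC is GAAA read on the other strand). The windows are chr5:92348890-92349139 on the minus strand for Cxcl10, chr3:142559794-142560043 on the plus strand for Gbp3, chr19:34640639-34640888 on the plus strand for Ifit1 and chr19:34583279-34583528 on the plus strand for Ifit3.
Cxcl10: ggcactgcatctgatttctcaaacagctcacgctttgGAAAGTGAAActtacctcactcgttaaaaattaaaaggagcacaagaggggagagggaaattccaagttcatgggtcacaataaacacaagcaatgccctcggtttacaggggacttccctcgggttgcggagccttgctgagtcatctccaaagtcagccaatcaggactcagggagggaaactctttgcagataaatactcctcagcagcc
Gbp3: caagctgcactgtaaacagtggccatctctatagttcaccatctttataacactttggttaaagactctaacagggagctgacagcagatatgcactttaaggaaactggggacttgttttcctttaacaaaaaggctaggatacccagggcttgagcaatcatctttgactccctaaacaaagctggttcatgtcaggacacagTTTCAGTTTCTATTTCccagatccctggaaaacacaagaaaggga
Ifit1: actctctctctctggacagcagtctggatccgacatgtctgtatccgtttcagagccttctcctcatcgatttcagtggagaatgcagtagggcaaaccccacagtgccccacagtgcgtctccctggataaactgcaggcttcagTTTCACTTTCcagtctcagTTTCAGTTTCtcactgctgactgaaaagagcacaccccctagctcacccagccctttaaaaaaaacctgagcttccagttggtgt
Ifit3: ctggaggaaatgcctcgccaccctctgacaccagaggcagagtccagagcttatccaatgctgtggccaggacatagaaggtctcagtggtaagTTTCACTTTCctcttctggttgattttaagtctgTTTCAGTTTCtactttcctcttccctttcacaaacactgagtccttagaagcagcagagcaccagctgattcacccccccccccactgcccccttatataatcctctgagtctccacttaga
Counted from the start, the matches begin at -213 in Cxcl10, at -104 and -85 in Ifit1, and at -156 and -122 in Ifit3. In Gbp3 they begin at -45 and -39 and overlap each other, and the table holds a second start of Gbp3 without a match. Promoter windows were found for 29 of the 32 called genes. The motif was in 4 of the 29 (13.8%), 3 lower and 1 higher in CD8 cells, against 3.46% of 27025 mouse genes in the table. The letters TTC followed after any 3 bases by GAA, a spelling of the STAT element, were searched on both strands. They were in 6 of the 29 (20.7%), 5 lower and 1 higher in CD8 cells, against 8.13% of all genes. Those lower were Tnfrsf9, Serpina3g, Isg20, Samhd1 and Ccr6, and Tspan9 was higher. Tnfrsf9, Isg20, Ccr6 and Tspan9 also have annotated starts without a match, and the windows of Il2ra and Cish hold none. A match is a run of letters and not evidence of binding. The 29 genes come from a list chosen on these arrays, in which many interferon-response genes are named. Higher shares than among all mouse genes may come from that choice and are given as a description. The shares among the named genes that were not called were not computed.

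The named genes higher in CD8 cells had smaller differences. Tspan9, a tetraspanin membrane protein, was at 1.55 and 1.28 in CD8 cells and at 0.54 and 0.28 in CD4 cells, a difference of 1.01 ± 0.15 (adjusted p = 0.0076). Cma1, a chymase of mast cells, was at 2.11 and 2.05 in CD8 cells and at 1.32 and 1.10 in CD4 cells, a difference of 0.87 ± 0.16 (adjusted p = 0.023). Cd72, a B cell surface receptor, was at -0.55 and -0.50 in CD8 cells and at -1.32 and -1.19 in CD4 cells, a difference of 0.73 ± 0.11 (adjusted p = 0.010). In these 3 genes the pairs of arrays were apart. The gene 5430427O19Rik was at -0.22 and -0.47 in CD8 cells and at -1.04 and -1.09 in CD4 cells, a difference of 0.72 ± 0.13 (adjusted p = 0.021). With Ccl3 and Ifit3 these were all 6, and without CD4 replicate 2 none of them was called. The largest positive differences that were not called were those of Cpa3 (0.68), Gzmb (0.67), Tdgf1 (0.59), Fcer1a (0.55), Asns (0.50), Oas3 (0.49), Bcat1 (0.48), Egr2 (0.43), Pou2af1 (0.41) and Nr4a2 (0.41).

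Of the remaining genes lower in CD8 cells, Mbnl3, a regulator of RNA splicing, was at 0.37 and 0.43 in CD8 cells and at 1.36 and 2.04 in CD4 cells, a difference of -1.30 ± 0.21 (adjusted p = 0.014). Scin, which severs actin filaments, was at 1.37 and 1.08 in CD8 cells and at 2.11 and 2.49 in CD4 cells, a difference of -1.08 ± 0.15 (adjusted p = 0.0062). Samhd1 was at 0.39 and 0.38 in CD8 cells and at 1.31 and 1.28 in CD4 cells, a difference of -0.91 ± 0.09 (adjusted p = 0.0011). In each of these genes the pair of CD8 arrays was below the pair of CD4 arrays. The 11 called genes with smaller differences ranged from -0.84 to -0.47. They comprised Csf2, Gbp3, Ifit1, Ifih1 and Wars, given above, together with Xbp1 (-0.68), a factor of the unfolded protein response, the chemokine receptor gene Ccr6 (-0.57), 4933412E12Rik (-0.84), Srpk3 (-0.77), Snn (-0.71) and Sft2d2 (-0.56). Those outside the naming rule, namely Csf2, Ifit1, Ifih1, Ccr6, 4933412E12Rik, Srpk3, Snn and Sft2d2, were named after their values were seen.

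With all arrays, the listed proliferation genes were not called in either direction. None of the 27 named genes of mitosis and the cell cycle and none of the 6 of DNA replication passed the test in limma (3 and 0 at an unadjusted p below 0.05) or in the two-sample test, with list medians of -0.23 and -0.29. Mki67, a marker of dividing cells, was at 0.79 and 1.02 in untreated CD8 cells and at 1.08 and 1.64 in untreated CD4 cells, a difference of -0.45 ± 0.17 (adjusted p = 0.35). The mean value of the mitosis list was 0.69 and 0.89 on the CD8 arrays and 0.72 and 1.33 on the CD4 arrays, and that of the replication list 0.68 and 1.05 on the CD8 arrays and 0.61 and 1.67 on the CD4 arrays. CD4 replicate 2 held the highest of the 4 values for 26 of the 27 mitosis genes and for all 6 replication genes. Rrm2, a subunit of ribonucleotide reductase, and Cdc6, which loads the replicative helicase, had differences of -0.38 and -0.38. Without CD4 replicate 2 the medians were 0.03, with 18 of 27 genes above 0, and 0.26, with all 6 above 0. Without CD4 replicate 1 they were -0.52, with 26 of 27 genes below 0, and -0.83. After quantile normalization they were 0.02 and 0.01. Ttk, the spindle checkpoint kinase gene of the mitosis list, had -0.84 without CD4 replicate 1. Dna2, Ncapg and Kif2c, cell division genes outside the lists that were named after their values were seen, had -1.38, -0.93 and -0.79 there. In that fit, which leaves 1 untreated CD4 array, Ttk, Dna2, Ncapg and Kif2c were each called lower in CD8 cells. With all arrays Dna2, Ncapg and Kif2c had -1.01, -0.36 and -0.39, and none was called. Dna2 (adjusted p = 0.052) was called with array weights (0.043), the range filter (0.0073) and the replicate block (0.0499). CD4 replicate 2 was also above CD4 replicate 1 in 18 of the 26 genes called lower in CD8 cells. The shares of all features with this order, or with their highest value on CD4 replicate 2, were not computed. These counts are therefore given as a description.

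The genes of antigen receptor signalling, of inhibitory receptors and B7 ligands, and of naive and memory cells were not called, with 4, 2 and 3 named members and medians of 0.23, 0.10 and 0.04. At an unadjusted p below 0.05 limma counted 1, 0 and 2 of them, and the two-sample test called none after adjustment. Egr2 and Nr4a3, factors induced by the antigen receptor, had differences of 0.43 and -0.44. Cd86 and Cd274, ligands of costimulatory and inhibitory receptors, had 0.24 and -0.05. In the list of metabolic enzymes Wars was the 1 gene called of 6, and Asns, the asparagine synthetase, had 0.50 ± 0.22 (adjusted p = 0.46).

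**Figure D3:**
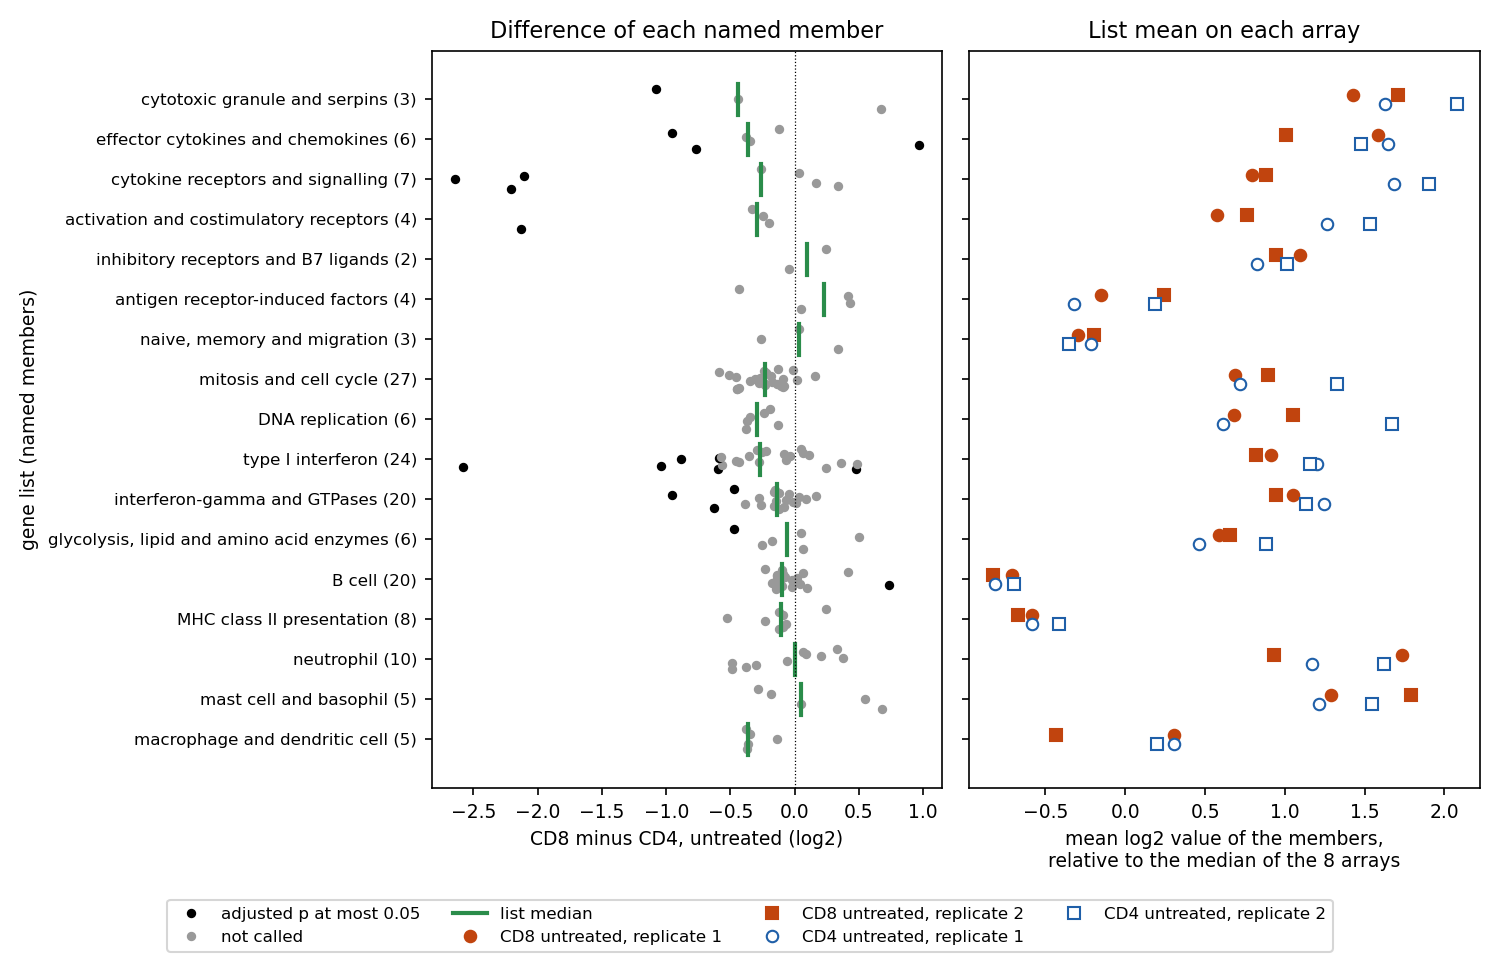
Left, CD8 minus CD4 difference of each named member of the lists with at least 2 named members (log2; black, adjusted p at most 0.05; grey, not called; green line, list median; dotted line, median of all features). Right, mean value of each list on the 4 untreated arrays (log2 relative to the median of the 8 arrays); for mitosis and DNA replication CD4 replicate 2 stands right of the other 3 arrays.

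Markers of other spleen cells were measured in the same arrays. In bulk RNA fewer cells of a type and less RNA per cell cannot be told apart, and centred values cannot show that a marker was absent. Of 20 named B cell genes Cd72 was called higher in CD8 cells and 19 were not called, with a list mean of -0.71 and -0.83 on the CD8 arrays and -0.82 and -0.69 on the CD4 arrays. None of 8 MHC class II genes was called, with means of -0.59 and -0.67 on the CD8 arrays and -0.59 and -0.41 on the CD4 arrays; H2-Ob (-0.53, adjusted p = 0.051) was called with array weights (0.036) and after quantile normalization (0.049). None of the 10 neutrophil genes was called, with means of 1.73 and 0.93 on the CD8 arrays and 1.17 and 1.62 on the CD4 arrays. Ltf and S100a8, which encode lactoferrin and a subunit of calprotectin, had differences of -0.49 and -0.49. The gap between replicates was widest for Chil3, at 3.14 and 0.28 on the CD8 arrays against 1.43 and 1.86 on the CD4 arrays. Chil3 was called lower without CD8 replicate 1 (-1.37, adjusted p = 0.038) and higher without CD8 replicate 2 (1.49, adjusted p = 0.025). The 5 macrophage and dendritic cell genes had means of 0.30 and -0.43 on the CD8 arrays and 0.31 and 0.20 on the CD4 arrays, and none was called with all arrays; without CD8 replicate 1 Ccl9 was. The plasma cell list had 1 named gene, Xbp1, given above, and the erythroid list had 1, the transferrin receptor gene Tfrc, which activated T cells also express, with -0.25 ± 0.22 (adjusted p = 0.78). At an unadjusted p below 0.05 limma counted 1 MHC class II gene, 1 neutrophil gene and 1 macrophage gene, and the two-sample test called none.

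Cma1 was read beside the listed genes of mast cells and basophils, which were split. Of the 5 named, 3 lay above 0 and 2 (Cyp11a1 and Ms4a2) below, from -0.29 to 0.68. The 5 named genes of mast cells and basophils had means of 1.29 and 1.79 on the CD8 arrays and 1.21 and 1.54 on the CD4 arrays, and none was called (2 at an unadjusted p below 0.05 in limma, none after adjustment in the two-sample test). Cpa3, the mast cell carboxypeptidase, was at 2.45 and 2.86 in CD8 cells and at 2.04 and 1.90 in CD4 cells, and Fcer1a, the alpha chain of the IgE receptor, was at 1.85 and 2.26 in CD8 cells and at 1.52 and 1.49 in CD4 cells. For both genes the CD8 arrays lay above the CD4 arrays, with differences of 0.68 ± 0.20 and 0.55 ± 0.14 (adjusted p = 0.17 and 0.12). After quantile normalization both were called, at 0.93 and 0.77 (adjusted p = 0.0499 and 0.034), and the list median was 0.32, against 0.05 as deposited. With 1 untreated array left out the list median ran from -0.38 to 0.56 and none was called. The part of such cells in the difference of Cma1 was not tested.

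The same subset difference was then taken in the blockade cultures, which use 4 other arrays. There 988 probe sets (2.19%) differed, 486 (1.08%) higher and 502 (1.11%) lower in CD8 cells. Of the 485 probe sets higher in untreated CD8 cells, 336 were also higher under blockade, which is 69.3% of the untreated and 69.1% of the blockade calls. Of the 645 lower ones, 336 were also lower under blockade, or 52.1% of the untreated and 66.9% of the blockade calls, and 4 were called in the opposite direction. The median difference of the 645 was -0.89 in untreated and -0.65 in blockade cells. That of the 485 was 0.89 in untreated and 0.79 in blockade cells. Both sets were picked by their call in untreated cells, which favours larger untreated values. The medians are therefore a description and do not show a weaker subset difference under blockade. Across all 45037 probe sets Pearson's r between the untreated and the blockade differences was 0.68 and Spearman's rho 0.34, given as a description, since probe sets of one array are not independent. The arrays shared no sample, but one pooled variance served both comparisons, and whether CD8 and CD4 cells were sorted from the same wells is not stated.

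Few of the named genes called in untreated cells were also called under blockade. The named genes were listed for a gap between these same untreated and blockade arrays, so a low share is favoured by that choice. A call in one culture beside no call in the other is also not a test of the difference between them. Of the 26 genes lower in untreated CD8 cells, 23 were below 0 under blockade, 2 were called lower there, and 1 was called higher (1.12% of all features were called lower and 1.08% higher). The 2 were Socs2, with -2.64 in untreated and -1.08 in blockade cells (adjusted p = 0.013 under blockade), and Serpina3g, with -1.08 in untreated and -0.83 in blockade cells (adjusted p = 0.014 under blockade). Of the 6 genes higher in untreated CD8 cells, 4 were above 0 under blockade and Ifit3 alone was called, with 0.48 in untreated and 1.59 in blockade cells.

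The difference between the 2 subset differences was itself tested. It passed at 28 probe sets (0.0622%), and at 26 of these (0.0577% of all) the value was negative, meaning CD8 cells stood lower relative to CD4 cells in untreated than in blockade cultures. The count was 5 without either of the CD4 blockade arrays, 9 without CD8 blockade replicate 2, 11 without CD8 blockade replicate 1 or CD4 untreated replicate 2, and 0 without both of those together (2130 at an unadjusted p below 0.05). Of the 26, 10 were called in untreated cells alone, 4 in both with the larger difference in untreated cells, 4 in both with the larger difference under blockade, 4 in both with opposite directions, and 4 under blockade alone. By gene the test passed for 4 of the 289 named genes (1.38%), against 0.0578% of all features. The named genes were listed for a gap between these same untreated and blockade arrays, so a higher share among them is favoured by that choice. Dnah7b had a subset difference of -3.91 in untreated and -0.40 in blockade cells (adjusted p = 0.0076 for the difference between them). Itih5 had -3.62 in untreated and -0.51 in blockade cells (adjusted p = 0.0031). Itih5 kept its call without any 1 of the 8 arrays (adjusted p of 0.0060 to 0.044), and Dnah7b lost it without any 1 of the 4 blockade arrays (0.062 to 0.082); neither was called without both arrays named above (0.14 and 0.14). In blockade cultures Dnah7b was at -0.89 and -0.84 in CD8 cells and at -0.34 and -0.59 in CD4 cells, so both subsets were there below the median of the 8 arrays.

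Tnfrsf9 had -2.13 in untreated and -0.20 in blockade cells (adjusted p = 0.043 for the difference between them), and its 2 probe sets gave adjusted p-values of 0.013 and 0.39. Gbp3 reversed, with -0.63 in untreated and 0.61 in blockade cells, each called in its own culture (adjusted p = 0.041 for the difference between them). Il2ra had -2.21 in untreated and -0.39 in blockade cells, Socs2 -2.64 in untreated and -1.08 in blockade cells, and Cish -2.10 in untreated and -0.74 in blockade cells, and for these the difference between cultures did not pass (adjusted p = 0.59, 0.11 and 0.14). The calls of Tnfrsf9 and Gbp3 for the difference between cultures were near the threshold: that of Tnfrsf9 held without CD4 untreated replicate 1 (adjusted p = 0.032) and was lost without any 1 of the other 7 arrays (0.11 to 0.23), and that of Gbp3 was lost without any 1 of the 8 (0.093 to 0.26). With the replicate block they had 0.072 and 0.075. Socs1, an inhibitor of interferon and interleukin-2 signalling, was named after its values were seen: its probe set 1450446_a_at had -0.09 in untreated and 1.42 in blockade cells and passed alone (adjusted p = 0.014), while the mean of its listed probe sets did not (adjusted p = 0.21).

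**Figure D4:**
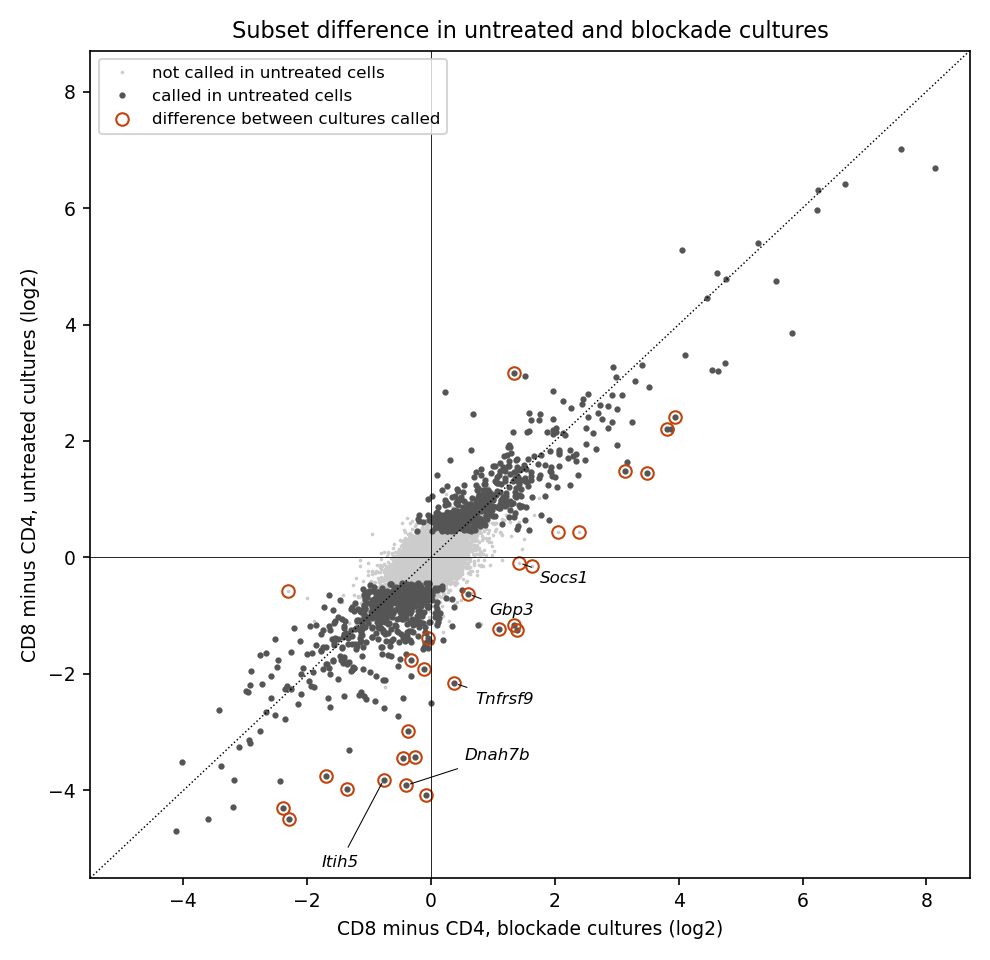
CD8 minus CD4 difference of each probe set in untreated cultures (vertical axis, log2) against that in blockade cultures (horizontal axis, log2); dark points were called in untreated cells, orange circles mark the 28 probe sets whose difference between cultures was called, and the dotted line marks equal differences. Most circles lie below the line, with Dnah7b and Itih5 far below 0 in untreated cells and near 0 under blockade.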

How the data were processed

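RNA of sorted CD8 and CD4 T cells was hybridized to 8 Affymetrix Mouse430_2 arrays, per the file headers. The deposited table holds 45101 probe sets, of which 64 array controls were dropped. Its values were taken as log2 values that the authors normalized and centred on each row's median, since all row medians are 0 in the deposited files and the header layout is that of a program with log2 values. The sources used here do not give the log base, the summary method or the normalization; another base would rescale every difference and fold but no p-value. Names came from the authors' deposited list, where 375 of 409 probe sets have 1 gene; 369 Entrez identifiers matched RefSeq (GRCm38.p6) and 33 symbols were updated.

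A mean per group over all 8 arrays was fitted in limma 3.58.1 (R 4.3.3) with eBayes, two-sided, and Benjamini-Hochberg adjustment over all features, threshold 0.05, on 45037 probe sets and on 44951 features with a gene's listed probe sets averaged. SEs come from this fit, with 4 residual and 4.5 prior degrees of freedom. The fit was tested on simulated data. The number of arrays limits the precision.

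Genes were named by rule: the 15 largest called differences in each direction, up to 10 that were not called where fewer than 10 were, 15 fixed genes where named, examples of each list by size, the 3 largest unnamed probe sets each way, and genes whose probe sets disagree. The members and lists were chosen with earlier results of these data known. Alternatives were normalization, array weights, prior, range filter, test, replicate block, probe set and arrays left out. Quantile normalization was applied to the deposited values, which were already centred on each row's median. It gives every array the same distribution of these centred values and is not a normalization of the raw signal. Sequences are RefSeq's.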

Additional observations from a re-analysis of the deposited data

Results flagged for a closer look

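The following results differed between untreated and blockade cultures by the test of the difference itself, an interaction term in limma over all features. The count of probe sets that passed was 28, and it was 5 to 26 with 1 array left out and 0 without CD8 blockade replicate 1 and CD4 untreated replicate 2 together. Among named genes the untreated minus blockade difference of the CD8 minus CD4 value was -3.51 for Dnah7b, -3.11 for Itih5, -1.94 for Tnfrsf9 and -1.23 for Gbp3, and among the unnamed probe sets singled out it was -2.19 for 1423415_at. For Dnah7b the untreated difference of -3.91 compares with -0.40 under blockade, and for 1423415_at -4.48 compares with -2.29. Without those 2 arrays none of the 5 was called, with values of -3.18, -2.91, -1.66, -1.29 and -1.94 in the same order. The named genes were listed for a gap between these untreated and blockade arrays, which favours passes among them. The cause of these differences was not tested.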

How the results depend on the processing

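All 32 called named genes had the same direction under every alternative run, and 9 stayed called without any 1 of the 4 untreated arrays: Dnah7b, Itih5, Socs2, Ifitm3, Tnfrsf9, Cish, Serpina3g, Isg20 and Samhd1. Leaving out 1 array gave 560 to 742 called probe sets and 12 to 26 called named genes in untreated cells, 506 to 793 probe sets under blockade, and 5 to 26 for the difference between cultures. When the 2 arrays with unusual spike-ins, CD8 blockade replicate 1 and CD4 untreated replicate 2, were left out together (chosen after seeing the data), the counts were 466, 12, 391 and 0 (2130 at an unadjusted p below 0.05, 28 in the fit of all arrays). Without CD8 blockade replicate 1 alone, 566 were called under blockade and 11 for the difference. The two-sample test called 0 probe sets, 0 named genes and, under blockade, 7 probe sets. With only the 4 arrays compared, 20 named genes and, under blockade, 632 probe sets were called; fewer arrays give fewer degrees of freedom. At least 1 log2 unit left 469, 13 and, under blockade, 408. The range filter, which tests fewer probe sets, gave 62 for the difference. Quantile normalization gave 10 higher and 21 lower named genes, against 6 and 26, and 4 positive and 15 negative calls for the difference, against 2 and 26. Dnah7b was then -2.85 and Il2ra -1.34. Il2ra lost its call without CD8 untreated replicate 1 (adjusted p = 0.055; range over the arrays left out, 0.00072 to 0.055) and with only the 4 arrays compared (0.052).

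Some values that were not called with all arrays changed sign, and Ccl9 was called at the lower end of its range. Bcl2 was 0.035 by probe set 1440770_at and 0.050 by 1443837_x_at, and Cd274 was 0.22 after quantile normalization. With those 2 arrays left out Rrm2 was 0.044, Cdc6 0.077, Ltf 0.15 and Tfrc 0.0052. With 1 array left out Rrm2 ranged from -0.80 to 0.044, Cdc6 from -0.88 to 0.13, Ltf from -1.13 to 0.15, S100a8 from -0.98 to 0.0044, Ccl9 from -1.19 to 0.43 and Tfrc from -0.56 to 0.061. The cause was not tested.

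Deviations of same-numbered arrays correlated between -0.03 and 0.08 over pairs of groups. Values near 0 over all probe sets cannot exclude a shared culture or animal, so whether the numbers pair the samples is not known. With the replicate block 1024 probe sets, 29 named genes, 911 probe sets under blockade and 26 for the difference were called. The two-sample test and the fit of 4 arrays could not be run for the difference between cultures.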
